A study of Mus musculus with 3 samples.

Results

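Interleukin-6 (Il6), leukemia inhibitory factor (Lif), oncostatin M (Osm), interleukin-11 (Il11) and cardiotrophin-like cytokine factor 1 (Clcf1) are ligands of the gp130 family, and Il6ra, Il6st, Osmr, Lifr and Il11ra1 are the receptor subunits that bind them. These 10 genes were taken as a list of names from the 32285 genes in the count matrices, and all 10 were found there. Full-thickness dorsal skin of wild-type C57BL/6J mice, female per the labels and 8 weeks old when they entered the study, was dissociated, and its cells were sequenced in droplets from the 3′ end of their transcripts, in 3 libraries, 1 per condition. The CON library came from skin that received no ultraviolet light and vehicle ointment. The UV library came from skin irradiated over 12 weeks, on alternate days, with UVA at 0.60 mW/cm2 together with UVB at 3.5 mW/cm2, with the same vehicle. The Rux library had the same irradiation, followed each time by topical 1.5% ruxolitinib, which inhibits the kinases JAK1 and JAK2. All skin was collected a day after the last exposure, and the number of mice pooled into a library is not given in the sources used here. Each condition therefore has 1 library and no replicate, and differences between conditions carry no p-value. Transcripts were counted by UMIs, the barcodes that tell captured molecules apart. The intervals in parentheses are exact 95% intervals (Poisson for levels, Clopper-Pearson for shares, conditional binomial for ratios) and cover counting error only.

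Members of this family signal through a shared subunit, gp130, encoded by Il6st. IL-6 and IL-11 first bind their own subunit, Il6ra or Il11ra1, and then join a pair of gp130 molecules, whereas oncostatin M uses gp130 with Osmr, and LIF uses gp130 with Lifr. CLCF1 uses CNTFR, Lifr and gp130. The bound receptors activate JAK kinases, which phosphorylate STAT3, and STAT3 induces Socs3, an inhibitor that binds gp130 and ends the signal. In skin, fibroblasts and vessel wall cells are known sources of IL-6 in inflammation, and oncostatin M comes mainly from leukocytes.

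The files were made on the mouse build mm10 (GRCm38), and coordinates are from GENCODE M21 on that build. Il6 lies at chr5:30013114-30019981 on the plus strand. Osm (chr11:4236420-4241026) and Lif (chr11:4257557-4272514) are neighbours on the plus strand with a gap of 16.53 kb. Osmr (chr15:6813577-6874969, minus strand) and Lifr (chr15:7090614-7197489, plus strand) are 215.6 kb apart. Il11 lies at chr7:4772373-4782859 (minus), Clcf1 at chr19:4214238-4223490 (plus), Il6ra at chr3:89864059-89913196 (minus), Il6st at chr13:112464070-112510086 (plus) and Il11ra1 at chr4:41699989-41769474 (plus). All 10 are annotated as protein coding.

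RefSeq promoters on GRCm38.p6 were at hand for 8 of the 10 genes (11 promoters, none for Osm and Clcf1). The 250 bases before the transcription start of Il6 (chr5:30012864-30013113, plus strand) and of Lif (chr11:4257318-4257567, plus strand) are printed 5′ to 3′, since FB-like cells held most UMIs of both ligands while the levels of these ligands moved apart under ruxolitinib. Capitals mark motif matches. The 5 motifs were searched on both strands, and they were AP-1 (TGANTCA), CRE (TGACGTCA), C/EBP (TTGNNCAA), NF-kB (its 10-letter site) and STAT (TTCNNNGAA).
Il6: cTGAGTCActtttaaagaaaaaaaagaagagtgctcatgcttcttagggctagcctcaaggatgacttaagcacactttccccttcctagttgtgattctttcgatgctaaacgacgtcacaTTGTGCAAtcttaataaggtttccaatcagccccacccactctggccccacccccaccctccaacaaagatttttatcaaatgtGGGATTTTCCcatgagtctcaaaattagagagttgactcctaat
Lif: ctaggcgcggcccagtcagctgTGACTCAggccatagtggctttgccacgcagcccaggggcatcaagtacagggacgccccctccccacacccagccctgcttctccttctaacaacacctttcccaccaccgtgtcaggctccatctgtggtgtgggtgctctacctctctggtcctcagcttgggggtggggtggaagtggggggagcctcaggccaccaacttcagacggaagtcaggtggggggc
The Il6 promoter held an AP-1 match 249 to 243 bases before the start, a C/EBP match at 128 to 121 and an NF-kB match at 44 to 35, with no overlap between them. The Lif promoter held an AP-1 match at 228 to 222 and no other. In all 32851 RefSeq promoters cut to this length, AP-1 was found in 6.749%, C/EBP in 5.65% and NF-kB in 0.3562%. Among the other members, 1 Il11 promoter held an AP-1 match. No window held a STAT match, which 7.02% of all promoters held. With 11 promoters searched, this absence cannot be told from that share. A match is a string of letters in this window and says nothing on binding.

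The matrices held 13170, 12411 and 11287 cells with 131570327 to 165337289 UMIs, and 10777, 10231 and 9299 cells of CON, UV and Rux were kept, with medians of 7549, 7669 and 9438 UMIs. Clustering gave 46 clusters, named after a class by marker genes apart from 12 that stayed unnamed, with 36.6%, 23.8% and 18.6% of the cells. The label of sex went against the data, since Ddx3y, a gene of the Y chromosome, had 110 to 121 UMIs per 1000000 UMIs (CPM) in the 3 libraries and Xist 0.092 to 0.119 CPM. Pairs of libraries shared 28 to 50 cell barcodes. Cell class names carry "-like" because they rest on markers alone. FB-like stands for fibroblasts, VEC-like and LEC-like for vascular and lymphatic endothelium, and KB-like for basal keratinocytes. MYE-like stands for myeloid cells, NEU-like for neutrophils, MC-like for mast cells, LYM-like for lymphocytes and MP-like for muscle progenitors. PCY-like stands for pericytes and vascular smooth muscle, which the marker list did not separate. The PCY-like class was 1 cluster, led by Myh11, Tagln and Acta2, genes of contractile cells. All 6 FB markers were detected in 73.5% to 99.3% of FB-like cells, and all 8 PCY markers in 19.2% to 91.5% of PCY-like cells. In MP-like cells 5 of 6 markers passed detection in 10% of cells.

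Levels are the UMIs of a gene summed over the cells of a class and divided by all UMIs of that class, in CPM. They were compared between classes and libraries and not between genes, and ranks of classes are among the named ones. A ratio between libraries was called when it reached 1.5-fold either way with an interval that left out no change, for genes with at least 20 UMIs over both libraries. A floor of 3 counts was used where no UMI was seen.

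Il6 was a transcript of the stroma, with PCY-like cells at the top of the named classes in every library. In PCY-like cells it had 2823 CPM (2732 to 2917) in CON, 1983 (1916 to 2052) in UV and 942 (880 to 1006) in Rux. In FB-like cells it had 1073 CPM (1060 to 1087), 1122 (1112 to 1133) and 472 (466 to 478). In VEC-like cells it had 791 CPM (757 to 826), 760 (731 to 790) and 601 (560 to 643). Thus Rux was the lowest library in all 3 classes, and the UV value exceeded CON in pooled FB-like cells alone, by 1.05-fold. The FB-like levels pool subclusters that are described further on and that the libraries held in different numbers. Within those tested, Il6 in UV was below CON in 7 of 12 and above it in 5. With subclusters weighted as in CON, a setting chosen after the data were seen, the FB-like log2 ratio for UV over CON was −0.72. PCY-like cells stood above FB-like cells by 2.63-fold (2.54 to 2.72) in CON, 1.77-fold (1.70 to 1.83) in UV and 2.00-fold (1.86 to 2.13) in Rux. Among named classes FB-like cells ranked next after them in CON and UV and behind VEC-like cells in Rux, where their level was 0.785 (0.733 to 0.843) of that in VEC-like cells.

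Below these classes came MYE-like cells (234, 129 and 122 CPM in CON, UV and Rux), MC-like cells (224, 238 and 175 CPM) and LEC-like cells (203, 108 and 17.1 CPM). In CON the intervals of MYE-like, MC-like and LEC-like cells overlapped, so their order is not settled by the counts. LYM-like cells, which should make little Il6, had 20.9, 27.2 and 19.3 CPM, and 11%, 14.5% and 11.3% of them held an Il6 UMI at median depths of 5427, 5417 and 5586 UMIs. In FB-like cells the share was 68.8%, 70.6% and 50.9% at 6124, 7332 and 9961 UMIs. With each cell thinned to 2000 UMIs, which left out shallower cells, it was 52.6%, 52.9% and 29.4% in FB-like cells and 4.10%, 3.91% and 3.47% in LYM-like cells.

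Free RNA from broken fibroblasts can add UMIs to other droplets. If all Col1a1 in a class came from such RNA, it would bring 21.6, 26.9 and 10.6 CPM of Il6 to VEC-like cells of CON, UV and Rux and 13.2, 17.9 and 8.52 CPM to LEC-like cells. The measured Il6 lay far above this in VEC-like cells and in LEC-like cells of CON and UV, while the 17.1 CPM of LEC-like cells in Rux lay close to it. In MC-like cells of CON the same ceiling was 205 CPM, so the 224 CPM there cannot be told from free RNA, whereas in UV and Rux it was 39.0 and 16.2 CPM.

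FB-like cells were the largest class, with 3390, 5145 and 5029 cells. They held 63.6% (63.1% to 64.1%) of all Il6 UMIs of the kept cells in CON, 78.0% (77.7% to 78.3%) in UV and 85.1% (84.7% to 85.5%) in Rux. PCY-like cells, although higher per UMI, were 211, 248 and 115 cells and held 9.13%, 5.74% and 2.81%. These shares move with the number of cells caught in each class, and the number of cells in the tissue was not measured. Among unnamed clusters, cluster 30 (led by vessel genes such as Rgs5 and Flt1, 62 to 176 cells a library) had 2539, 1216 and 1176 CPM, and cluster 4 (cells of low UMI count with Gdf10 and Mgp) had 1892, 1585 and 604 CPM. Both lay above FB-like cells in every library, and cluster 30 lay above PCY-like cells in Rux.

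Within FB-like cells Il6 was unevenly spread. The 10% of cells with the most Il6 held 51.9% of its FB-like UMIs in CON, 50.9% in UV and 67.9% in Rux, with up to 153, 135 and 155 UMIs in 1 cell. The median FB-like cell held 2, 2 and 1. For Il6st, the shared subunit, the top 10% of cells held 29.5%, 29.6% and 30.8% of its UMIs, and for Osmr 38.0%, 35.1% and 38.4%.

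**Figure D1:**
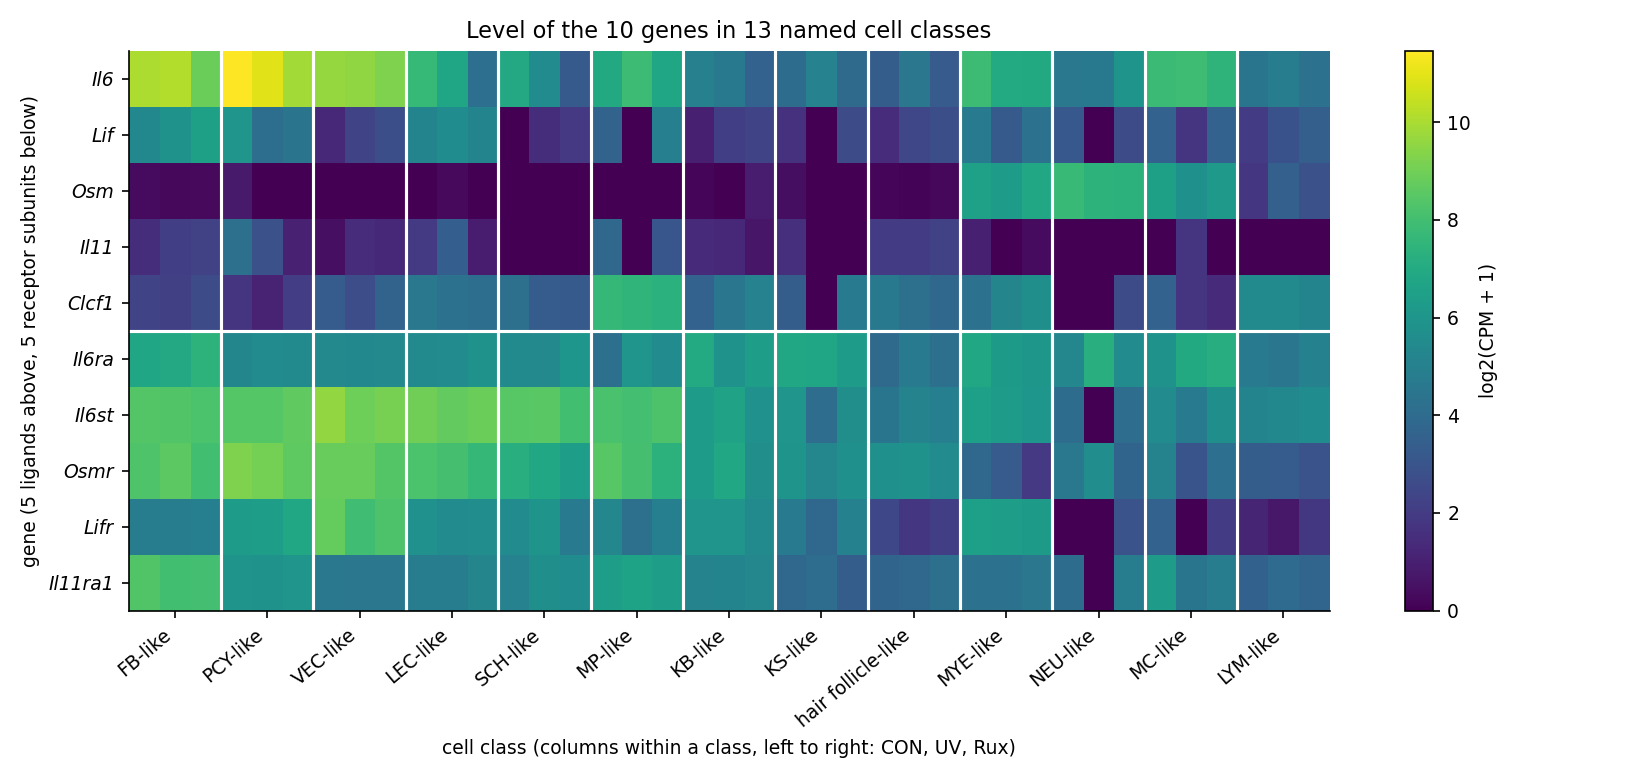
Level of the 5 ligands (upper rows) and 5 receptor subunits (lower rows) in 13 named cell classes, as log2(CPM + 1) in colour, with CON, UV and Rux from left to right in each class. Il6 is brightest in PCY-like, FB-like and VEC-like cells, and Osm is bright in MYE-like, NEU-like and MC-like columns alone. In CON, Il6st and Lifr are brightest in VEC-like cells and Osmr in PCY-like cells.

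Lif, named for its effect on leukemia cells and known to hold stem cells undifferentiated, was mostly in FB-like cells and rose there under ruxolitinib. FB-like cells had 40.4 CPM (37.8 to 43.0) in CON, 58.1 (55.8 to 60.5) in UV and 89.8 (87.3 to 92.3) in Rux, with the 3 intervals apart. These levels pool subclusters that are described further on. Within them Lif was above UV in Rux in 11 of 11 with enough UMIs. It was below CON in UV in 8 of 10, and for Rux over CON above in 6 and below in 6. FB-like cells held 59.5%, 77.3% and 86.9% of all Lif UMIs. LEC-like cells had 34.5, 47.0 and 34.6 CPM, and PCY-like cells 61.2 (48.4 to 76.4), 16.4 (10.8 to 23.9) and 20.5 (12.3 to 32.0) CPM. PCY-like cells were thus first in CON, and in UV and Rux came behind FB-like and LEC-like cells, with LEC-like and PCY-like intervals overlapping in Rux. If all Col3a1 in PCY-like cells were free fibroblast RNA, it would bring 14.8 and 19.7 CPM of Lif in UV and Rux, close to the measured values. The ceiling from Col1a1 was 6.9 and 5.8 CPM. The Lif UMI was seen in 10.8%, 14.7% and 24.5% of FB-like cells, and in 5.45%, 7.14% and 11% after thinning. The class of at least 100 cells with the least Lif was skeletal muscle-like in CON (0 of 154 cells, with an interval up to 7.37 CPM). In UV and Rux it was SCH-like, a Schwann cell class (0.549% and 0.980% of cells, at medians of 2622 and 3308 UMIs).

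Osm was a leukocyte transcript. NEU-like cells had 218 CPM (145 to 316) in CON, 167 (67.2 to 344) in UV and 165 (137 to 197) in Rux, but only 50, 21 and 221 cells and 28, 7 and 123 Osm UMIs. MYE-like cells had 94.7 CPM (81.4 to 109), 80.7 (68.8 to 94.0) and 112 (102 to 123), and MC-like cells 89.7, 53.6 and 69.5 CPM. NEU-like cells were above MYE-like cells in CON by 2.34-fold (1.49 to 3.45) and in Rux by 1.48-fold (1.20 to 1.81), while in UV the interval of 0.819 to 4.36 held no difference. FB-like cells had 0.257, 0.202 and 0.214 CPM, and KB-like cells, which should lack Osm, 0.130, 0 and 0.893 CPM, with a UMI in 0.184%, 0% and 1.59% of cells (0 of 100 cells in UV). In LYM-like cells 1.57%, 4.15% and 3.31% of cells held a UMI.

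Together the MYE-like, NEU-like, MC-like and LYM-like cells held 92.1% (88.0% to 95.2%), 94.2% (90.2% to 96.9%) and 96.1% (94.3% to 97.4%) of the 242, 223 and 661 Osm UMIs of CON, UV and Rux. After the leukocytes were clustered again, monocyte-like cells had 216 CPM (177 to 261), 105 (77.2 to 140) and 138 (121 to 156), and macrophage-like cells 83.0 (64.2 to 106), 140 (115 to 169) and 121 (104 to 141). Monocyte-like cells were therefore above macrophage-like cells in CON, where the intervals did not overlap, and the intervals overlapped in UV and Rux. The largest source was monocyte-like cells in CON (44.2% of Osm UMIs) and Rux (38.4%) and macrophage-like cells in UV (48.0%).

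Il11, a cytokine linked to fibrosis, was sparse everywhere. Unnamed epithelial clusters held most of its UMIs in CON and UV, with 322 of 486 (66.3%, 61.9% to 70.5%), 279 of 542 (51.5%, 47.2% to 55.8%) and 142 of 429 (33.1%, 28.7% to 37.8%), at 5, 7.87 and 5.37 CPM. FB-like cells held 42, 134 and 216 UMIs, or 1.80 CPM (1.30 to 2.43), 3.39 (2.84 to 4.02) and 3.85 (3.36 to 4.40). PCY-like cells held 23, 10 and 1 UMIs, or 18.1 CPM (11.4 to 27.1), 6.08 (2.92 to 11.2) and 1.08 (0.027 to 6.00), and LEC-like cells 18, 43 and 2 UMIs. LYM-like cells held no Il11 UMI in 254, 241 and 362 cells. The floor of 3 counts is 1.90, 1.94 and 1.32 CPM there, and the intervals reach 2.33, 2.39 and 1.62 CPM. In FB-like cells a UMI was seen in 0.914%, 1.79% and 2.76% of cells, and in 0.277%, 0.655% and 0.736% after thinning. The values of UV and Rux were above CON after thinning too, but rest on few cells and are given without intervals. They pool subclusters described further on, where Il11 for UV over CON ran from −0.90 to 0.08 in the 3 with enough UMIs.

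Clcf1 was highest in MP-like cells, at 195 CPM (159 to 237), 179 (109 to 277) and 157 (97.1 to 240) over 155, 36 and 32 cells. LYM-like cells came next in CON with 42.4 CPM, and had 42.8 in UV and 35.5 in Rux. MYE-like cells had 19.1 (13.5 to 26.4), 35.9 (28.2 to 45.2) and 51.3 (44.6 to 58.8) CPM, and KB-like cells 11.3, 21.3 and 33.0 CPM, so both classes had their lowest value in CON and their highest in Rux. KB-like cells pool 2 clusters. The cluster led by Fcgbp and Col17a1 had 473, 25 and 74 cells in CON, UV and Rux. The cluster with Top2a and histone genes among its leading genes had 71, 75 and 52. The part of this mix in the KB-like levels was not tested. Among lymphocytes, innate lymphoid-like cells had 80.5, 96.6 and 88.4 CPM and alpha-beta T-like cells 19.2, 26.5 and 17.0 CPM. FB-like cells had 4.07, 3.49 and 5.40 CPM. The lowest class of at least 100 cells was MEL-like (melanocytes) in CON, PCY-like in UV and MC-like in Rux, with 2.21, 1.22 and 1.58 CPM and a UMI in 3.75%, 0.806% and 0.474% of cells at medians of 21767, 5702 and 1655 UMIs.

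**Figure D2:**
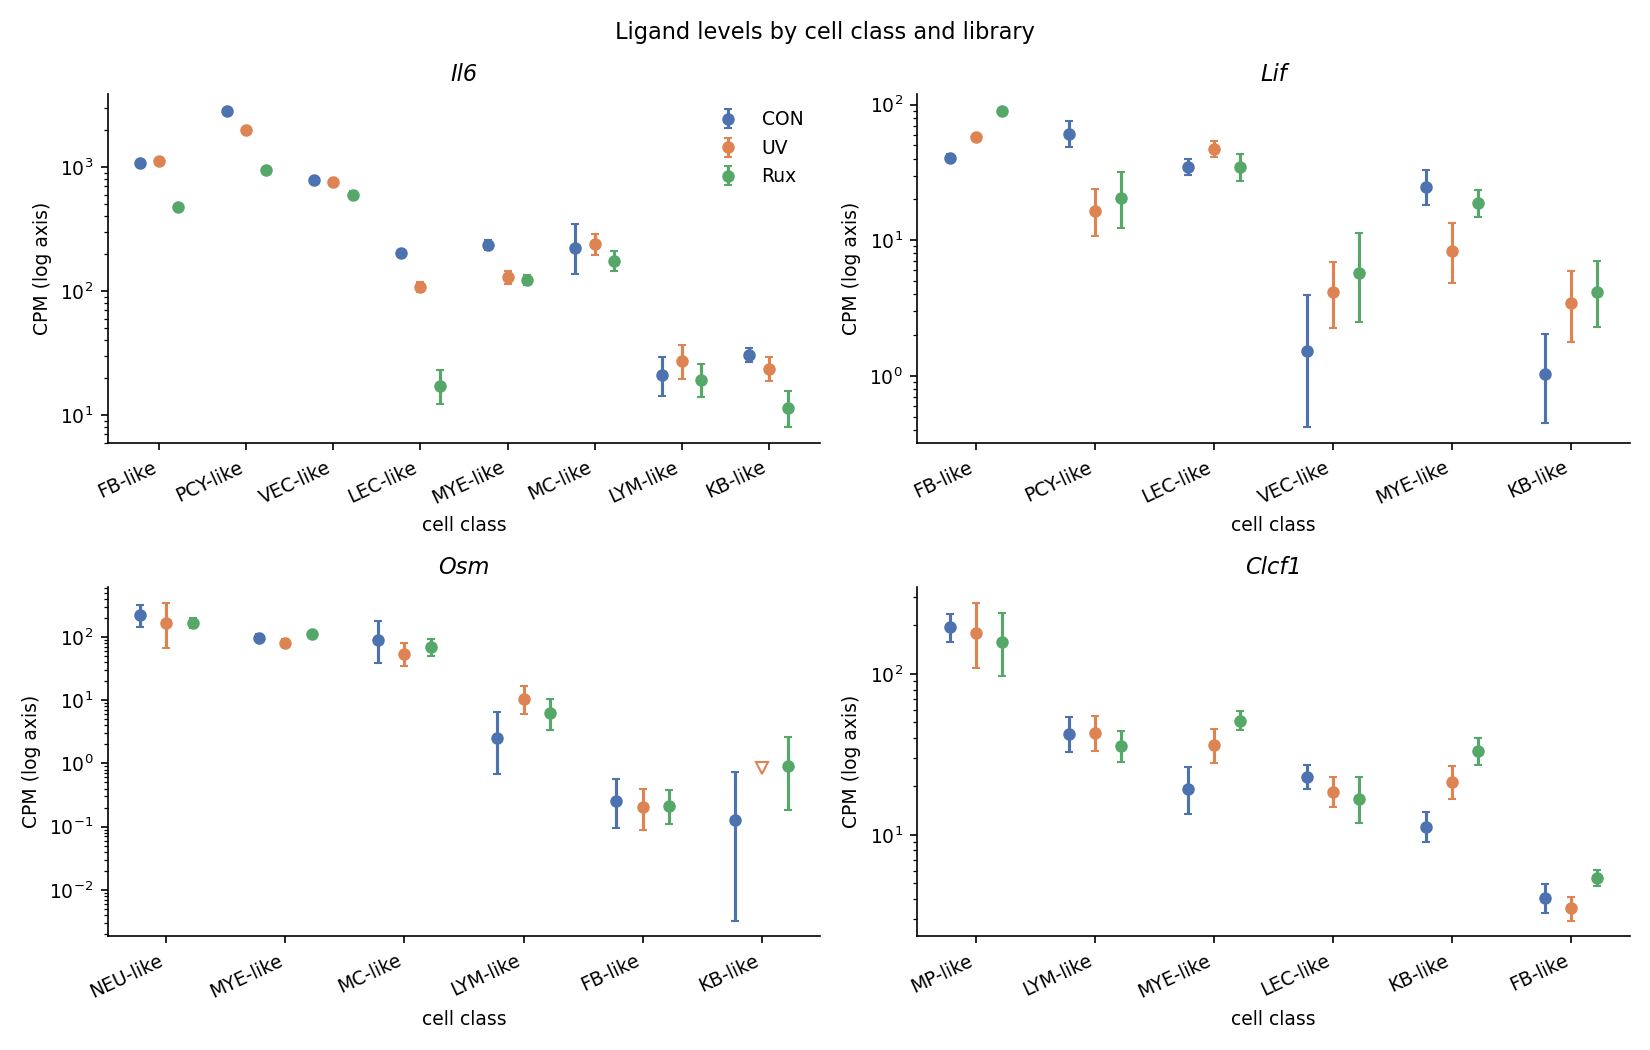
Il6, Lif, Osm and Clcf1 in selected cell classes of CON, UV and Rux, as CPM on a log axis with exact 95% Poisson intervals, and an open triangle at the floor of 3 UMIs where no UMI was seen. Il6 in FB-like cells falls from 1122 CPM in UV to 472 in Rux, while Lif in the same cells goes from 58.1 to 89.8.

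The shared subunit Il6st was highest in endothelium. VEC-like cells had 788 CPM (754 to 823) in CON, 487 (463 to 511) in UV and 555 (517 to 596) in Rux, the highest of the named classes in each library. LEC-like cells had 497, 416 and 467 CPM, SCH-like cells 354, 370 and 256, PCY-like cells 345, 345 and 406, and FB-like cells 335, 329 and 294. In CON and UV the SCH-like, PCY-like and FB-like intervals overlapped with their neighbours. KB-like cells had 78.5, 96.5 and 54.5 CPM, and LYM-like cells 34.8, 39.5 and 46.9 CPM. A UMI was seen in 81.3%, 82.3% and 86.5% of FB-like cells (50.3%, 46.8% and 43.8% after thinning), against 32.4% of hair follicle-like cells in CON, 5.81% of MC-like cells in UV and 4.98% of NEU-like cells in Rux, the lowest by CPM among classes of at least 100 cells, at medians of 20983, 1237 and 3291 UMIs.

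Osmr, the partner of gp130 for oncostatin M, was highest in PCY-like cells at 607 CPM (565 to 651), 535 (500 to 572) and 388 (349 to 430). VEC-like cells followed with 446 (421 to 473), 439 (417 to 462) and 339 (309 to 371) CPM, FB-like cells had 319 (312 to 327), 380 (374 to 386) and 255 (251 to 259), and LEC-like cells 299, 274 and 197. MP-like cells had 357, 269 and 164 CPM. The intervals of PCY-like and VEC-like cells overlapped in Rux and those of FB-like and LEC-like cells in CON. FB-like cells stood above KB-like cells (77.7, 118 and 49.4 CPM) by 4.11-fold, 3.22-fold and 5.14-fold. LYM-like cells had 9.48, 9.07 and 6.58 CPM, close to what free fibroblast RNA could bring (7.09, 9.08 and 7.26 CPM), with a UMI in 5.12%, 5.39% and 3.87% of cells against 68.0%, 75.3% and 72.2% of FB-like cells. The cells with most Osm, NEU-like and MYE-like, were thus not the cells with most Osmr, since MYE-like cells had 13.4, 8.86 and 2.71 CPM of Osmr.

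Lifr set the vascular endothelium apart. VEC-like cells had 431 CPM (406 to 457), 250 (233 to 267) and 310 (281 to 341), which was 15.5-fold (14.1 to 17.1), 9.27-fold (8.46 to 10.2) and 10.5-fold (9.43 to 11.7) the level in FB-like cells (27.8, 26.9 and 29.5 CPM). LEC-like cells, the other endothelial class, had 54.7, 45 and 48.6 CPM. PCY-like cells had 79.3, 82.7 and 115 CPM, MYE-like cells 88.5, 81.2 and 75.7, and KB-like cells 62.3, 61.2 and 44.3, and the neighbours in this group overlapped in CON and UV. LYM-like cells had 1.26, 0.648 and 2.63 CPM, with a UMI in 0.787%, 0.415% and 1.38% of cells. FB-like cells, which held most Lif UMIs, were low in the subunit that binds it.

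Il11ra1, the subunit for IL-11, was highest among named classes in FB-like cells, at 330 CPM (322 to 337), 255 (250 to 260) and 258 (254 to 262). They held 7698 of its 14317 UMIs in CON, 10085 of 14177 in UV and 14475 of 18783 in Rux. Unnamed epithelial clusters, which also held Il11, had 60.6, 65.8 and 118 CPM of Il11ra1. Their free RNA ceilings from Col1a1 were 2.79, 2.86 and 3.73 CPM. PCY-like cells had 60.4, 56.6 and 62.5 CPM, so FB-like cells stood above them by 5.42-fold (4.36 to 6.92), 4.49-fold (3.68 to 5.60) and 4.10-fold (3.19 to 5.44). The free RNA ceiling of Il11ra1 in PCY-like cells was 49.9, 65.1 and 56.7 CPM from Col3a1, near these values. From Col1a1 it was 17.7, 30.4 and 16.7 CPM. LYM-like cells had 10.7, 14.9 and 12.3 CPM, with a UMI in 5.51%, 8.30% and 7.46% of cells. Its near-identical copies, Il11ra2 and Gm13305, held between 0 and 17 UMIs in all kept cells of a library against 14177 to 18783 for Il11ra1, but reads that match several copies may have been dropped in counting.

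Il6ra, which binds IL-6 at the membrane and can be shed, was spread over epidermis, stroma and leukocytes. FB-like cells had 105 CPM (101 to 109), 120 (116 to 123) and 167 (164 to 171), KB-like cells 127 (120 to 136), 56.9 (49.3 to 65.4) and 83.9 (74.4 to 94.3), MYE-like cells 112, 75.8 and 66.1, and MC-like cells 56.0, 124 and 141. KB-like cells were thus above FB-like cells in CON (1.21-fold, 1.12 to 1.31) and below them in UV (0.477, 0.411 to 0.548) and Rux (0.502, 0.444 to 0.565), with 544, 100 and 126 KB-like cells. The mix of clusters within KB-like cells, given above for Clcf1, differed between the libraries, and its part in this order was not tested. PCY-like cells, highest in Il6, had 37.7, 45.6 and 42 CPM. A UMI was seen in 43.1%, 48.1% and 67.7% of FB-like cells (19.4%, 19.5% and 27.6% after thinning), against 10.0% of MEL-like cells in CON, 10.4% of LYM-like cells in UV and 29.0% of hair follicle-like cells in Rux at medians of 21767, 5417 and 25432 UMIs, the lowest by CPM among classes of at least 100 cells.

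**Figure D3:**
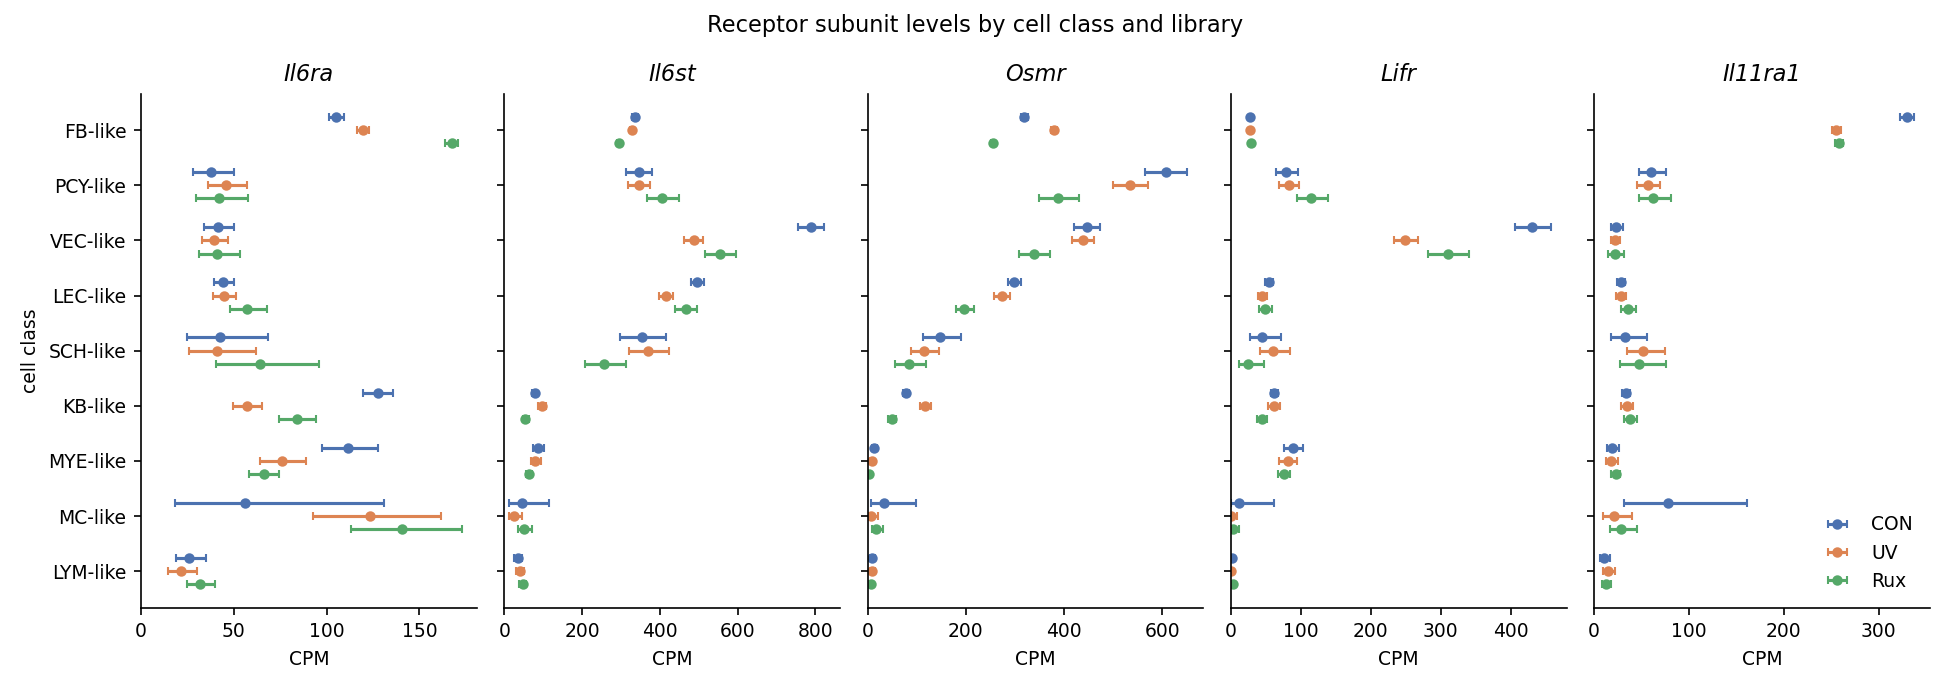
Receptor subunits in 9 cell classes of CON, UV and Rux, as CPM with exact 95% Poisson intervals. Il6st and Lifr peak in VEC-like cells (788 and 431 CPM in CON), Osmr in PCY-like cells (607 CPM in CON) and Il11ra1 in FB-like cells (330 CPM in CON).

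UMIs of Il6 and of receptor subunits were found in the same FB-like cells, although Osmr serves oncostatin M and not IL-6. After thinning to 2000 UMIs, 26.6% (25.1% to 28.1%) of FB-like cells in CON held UMIs of both Il6 and Osmr, against 21.8% if the genes had been independent, and the values were 28.3% against 24.6% in UV and 14.2% against 10.6% in Rux. Il6st and Osmr were found together in 21.9%, 22.6% and 16.3%, against products of 20.9%, 21.8% and 15.8%. Il6 and Il6ra, the ligand with its own subunit, were found together in 11%, 10.4% and 7.89%, near the products of 10.2%, 10.3% and 8.11%. In VEC-like cells Il6st and Lifr were found together in 32.2%, 21.4% and 24.8%, against 30.5%, 16% and 20.9%. These cells share a library and differ in state, so the excess over a product is a description.

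Over all FB-like cells pooled, 1 member passed the threshold between UV and CON, and these pooled ratios mix subclusters that are described further on. Of the 9 members with enough UMIs it was Il11, with a log2 ratio of 0.90 (0.40 to 1.45), and the share over all genes tested was 23.9%. Il6 had 0.06 (0.04 to 0.09), Lif 0.53 (0.42 to 0.64), Osmr 0.25 (0.21 to 0.29), Il6ra 0.19 (0.12 to 0.26) and Il11ra1 −0.37 (−0.41 to −0.33). The intervals of these 5 left out 0, but none reached 1.5-fold. Il6st had −0.03 (−0.07 to 0.01) and Lifr −0.04 (−0.19 to 0.10).

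Rux differed from UV in FB-like cells by lower Il6 and higher Lif and Clcf1. The log2 ratio was −1.25 (−1.27 to −1.23) for Il6, 0.63 (0.56 to 0.70) for Lif and 0.63 (0.33 to 0.93) for Clcf1, so 3 of 10 members were called where 17.4% of all genes tested were. Osmr had −0.58 (−0.61 to −0.54), just inside the threshold, Il6ra 0.48 (0.43 to 0.54) and Il6st −0.16 (−0.19 to −0.13). Against CON, 4 of 9 members were called in Rux, with Il6 at −1.19 (−1.21 to −1.16), Lif at 1.15 (1.05 to 1.26), Il11 at 1.08 (0.62 to 1.61) and Il6ra at 0.67 (0.61 to 0.74), beside 25.3% of all genes. The contrasts share libraries, and their values are not independent. With subclusters weighted as in CON, Lif for Rux over CON (0.50) and Il11 for UV over CON (0.49) were no longer called, while Il6 (−0.72) and Lif (−0.54) for UV over CON turned negative. These weights left out subcluster 10, and subcluster 2, with 57 cells in Rux, took its share of CON UMIs. For Rux over UV, Lif lost its call without subcluster 2 (0.53), and Clcf1 lost it with equal weight per cell (0.49) and with the low-UMI cluster 4 added (0.56). The median log2 ratio over all genes tested was −0.10, −0.02 and −0.12 for UV over CON, Rux over UV and Rux over CON, and that of the members tested 0.06, 0.09 and 0.09.

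In PCY-like cells 2 of 8 members were called for UV over CON (14.3% of all genes tested), Lif at −1.88 (−2.59 to −1.25) and Il11 at −1.53 (−2.80 to −0.44). For Rux over UV 1 of 7 was called (10.9%), Il6 at −1.07 (−1.18 to −0.97). For Rux over CON 4 of 8 were called (21.2%), Il6 at −1.58 (−1.69 to −1.48), Lif at −1.55 (−2.39 to −0.84), Il11 at −3.51 (−9.43 to −1.44, from a single UMI in Rux) and Osmr at −0.64 (−0.83 to −0.46). All 7 calls were toward lower levels, but the contrasts share libraries and repeat genes, so these calls are not independent. Of all genes tested in PCY-like cells, 6.04%, 7.21% and 11.2% were called lower in these contrasts, in the order given. The ratios of Lif and Il11 in PCY-like cells were opposite in sign to those in pooled FB-like cells for UV over CON and Rux over CON, a difference that was not tested. The pooled sign did not hold within FB-like subclusters. There Lif for UV over CON was below CON in 8 of 10 with enough UMIs, and for Rux over CON in 6 of 12. Il11 for UV over CON ran from −0.90 to 0.08 in the 3 with enough UMIs.

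In VEC-like cells 2 of 7 members were called for UV over CON (12.9% of all genes), Il6st at −0.70 (−0.79 to −0.60) and Lifr at −0.79 (−0.92 to −0.66), both subunits of the LIF receptor. VEC-like cells pool 2 clusters, led by Selp and Sele (294, 209 and 99 cells in CON, UV and Rux) and by Iglc2 and Fabp4 (111, 265 and 82 cells), and the part of this mix in the ratios was not tested. None of 8 was called for Rux over UV (10.3%) and none of 7 for Rux over CON (15.9%). Il6 there had −0.34 (−0.45 to −0.23) for Rux over UV, against −1.25 in FB-like cells.

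In LEC-like cells 2 of 9 members were called for UV over CON (14.2%), Il6 at −0.91 (−1.06 to −0.75) and Il11 at 1.71 (0.90 to 2.61). The same 2 genes were called for Rux over UV (11.4%), Il6 at −2.65 (−3.17 to −2.20, 483 against 40 UMIs) and Il11 at −3.19 (−6.59 to −1.56, 43 against 2 UMIs). For Rux over CON 2 of 9 were called (24.7%), Il6 at −3.55 (−4.06 to −3.12) and Osmr at −0.60 (−0.75 to −0.45). The Il6 level in Rux was near the free RNA ceiling given above.

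In MYE-like cells 3 of 9 members were called for UV over CON (14.5%), Il6 at −0.85 (−1.08 to −0.63), Lif at −1.54 (−2.46 to −0.75) and Clcf1 at 0.90 (0.32 to 1.52). For Rux over UV 2 of 9 were called (16.2%), Lif at 1.13 (0.39 to 2.02) and Osmr at −1.68 (−2.94 to −0.55), the latter at 8.86 and 2.71 CPM beside free RNA ceilings of 7.74 and 6.45. For Rux over CON 4 of 9 were called (25.4%), Il6 at −0.93 (−1.12 to −0.75), Clcf1 at 1.41 (0.91 to 1.97), Il6ra at −0.76 (−1.02 to −0.49) and Osmr at −2.27 (−3.47 to −1.24). Osm, the ligand typical of these cells, had −0.23 (−0.54 to 0.08), 0.47 (0.21 to 0.74) and 0.24 (−0.01 to 0.50) and was called in none. MYE-like cells pool monocyte-like and macrophage-like cells, whose numbers were 64 and 147 in CON, 59 and 121 in UV, and 193 and 190 in Rux. The class also holds other cells, with 277, 240 and 448 cells in all. The pooled Osm ratio for UV over CON mixes subsets whose levels differed in opposite directions. By the levels given above, Osm was lower in UV than in CON in monocyte-like cells and higher in macrophage-like cells, with intervals apart. Macrophage-like cells pool clusters in turn. Cells of the cluster led by Lyz1 and Retnla numbered 51, 66 and 103 in CON, UV and Rux. The cluster led by Ccl8 and Ccl12 had 96, 43 and 23, and that led by Mmp13 and Arg1 had 0, 12 and 64. The part of these mixes in the pooled ratios and in the macrophage-like levels was not tested.

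**Figure D4:**
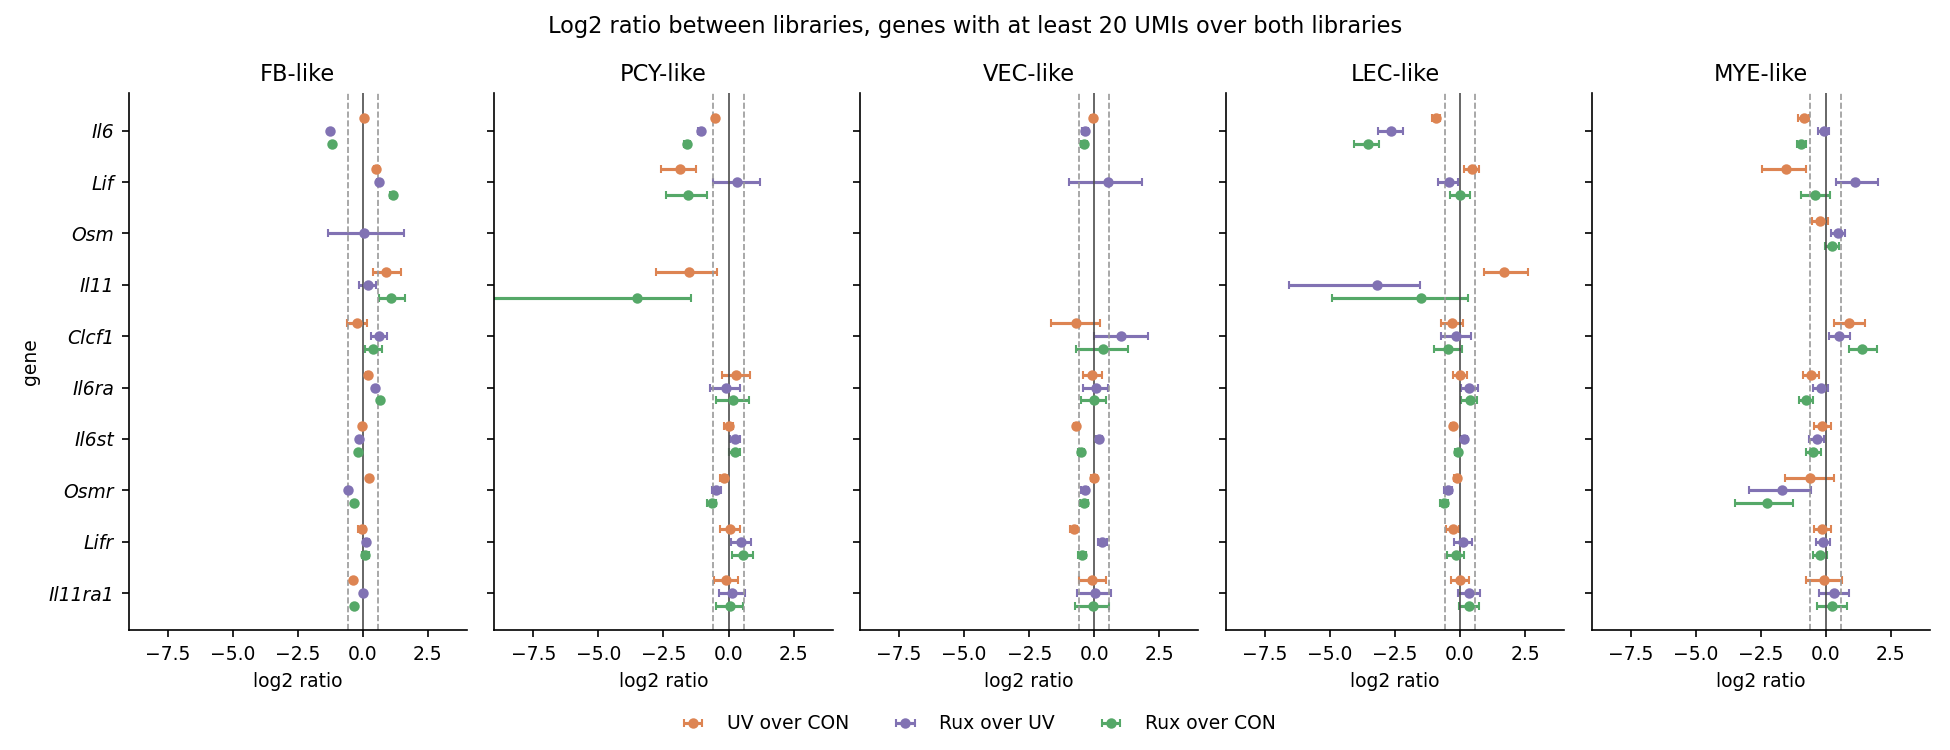
Log2 ratios of the 10 genes between libraries in 5 cell classes, with exact 95% conditional binomial intervals, for genes with at least 20 UMIs over both libraries. Dashed lines mark 1.5-fold, and Il6 for Rux over UV lies left of them in FB-like (−1.25), PCY-like (−1.07) and LEC-like cells (−2.65) but not in VEC-like cells (−0.34), while the interval of Il11 in PCY-like cells for Rux over CON runs past the axis to −9.43.

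FB-like cells were not uniform, and the library values mix states that the 3 libraries held in different numbers. FB-like cells were clustered again on all genes, which gave 13 subclusters, and since members were among those genes, levels of subclusters are a description. The highest Il6 was in subcluster 4 (led by Olfr1033, Gdf10 and Gpr39) with 4729, 2384 and 1669 CPM, and in subcluster 0 (led by Thbs4, Thbs1 and Col8a1) with 2864, 1362 and 956 CPM. Those 2 subclusters held 18.6%, 32.2% and 31.0% of the FB-like cells in CON, UV and Rux, and 49.5%, 48.6% and 58.0% of FB-like Il6 UMIs. At the low end, subcluster 8 (led by Ednrb, Acta2 and Tagln) had 25, 68.3 and 18.3 CPM. Subcluster 2 (led by Gadd45g, Socs3 and Zfp36) had 984, 546 and 114 CPM, and 1141, 377 and 57 cells. Subcluster 10 (led by Saa3, Hp and Lcn2) had no cell in CON, 22 in UV and 465 in Rux, with 661 and 478 CPM of Il6 in UV and Rux.

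Among 12 subclusters that had 20 cells or more from every library, Il6 was called lower in Rux than in UV in 10 and was below UV in 12 of 12, with log2 ratios from −2.52 to −0.51. Subclusters of a library are not replicates, and no share over all genes was made within them. Tallies over subclusters are therefore a description. The smallest 2 differences, both −0.51, were in subclusters 0 and 4, which were highest in Il6. For UV over CON, Il6 was called lower in 5 subclusters, higher in 1 (subcluster 8, 1.43), and below CON in 7 of 12. Subclusters 0 and 4 had −1.07 and −0.99, although the ratio over all FB-like cells was 0.06. With the subclusters weighted as in CON, an alternative added after the data were seen, the FB-like ratio for UV over CON became −0.72. No interval was made for this setting, so its call rests on 1.5-fold alone.

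Within subclusters Lif was mostly lower in UV than in CON and higher in Rux than in UV. For UV over CON it was called lower in 4 and higher in 0 of 10 subclusters with enough UMIs, below CON in 8, whereas all FB-like cells together had 0.53. For Rux over UV it was above UV in 11 of 11 and called higher in 5, among them subcluster 7 (led by Igfbp2, Grem1 and Cdh4), which went from 10.9 to 105 CPM. Subcluster 10 of Rux had 142 CPM and held 22.9% of the FB-like Lif UMIs of that library. Il6ra was above UV in 12 of 12 subclusters of Rux and called higher in 7. Osmr was below UV in 12 of 12 and called lower in 9, with subcluster 4 at −0.08 and subcluster 0 at −0.18. Over all FB-like cells Osmr had −0.58 and was not called. No share over all genes stands beside these tallies either. Il6st was called in 0 subclusters for UV over CON and 1 for Rux over UV. For Il11, 3 subclusters had enough UMIs for UV over CON and none was called, with values from −0.90 to 0.08, below the 0.90 of all FB-like cells.

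**Figure D5:**
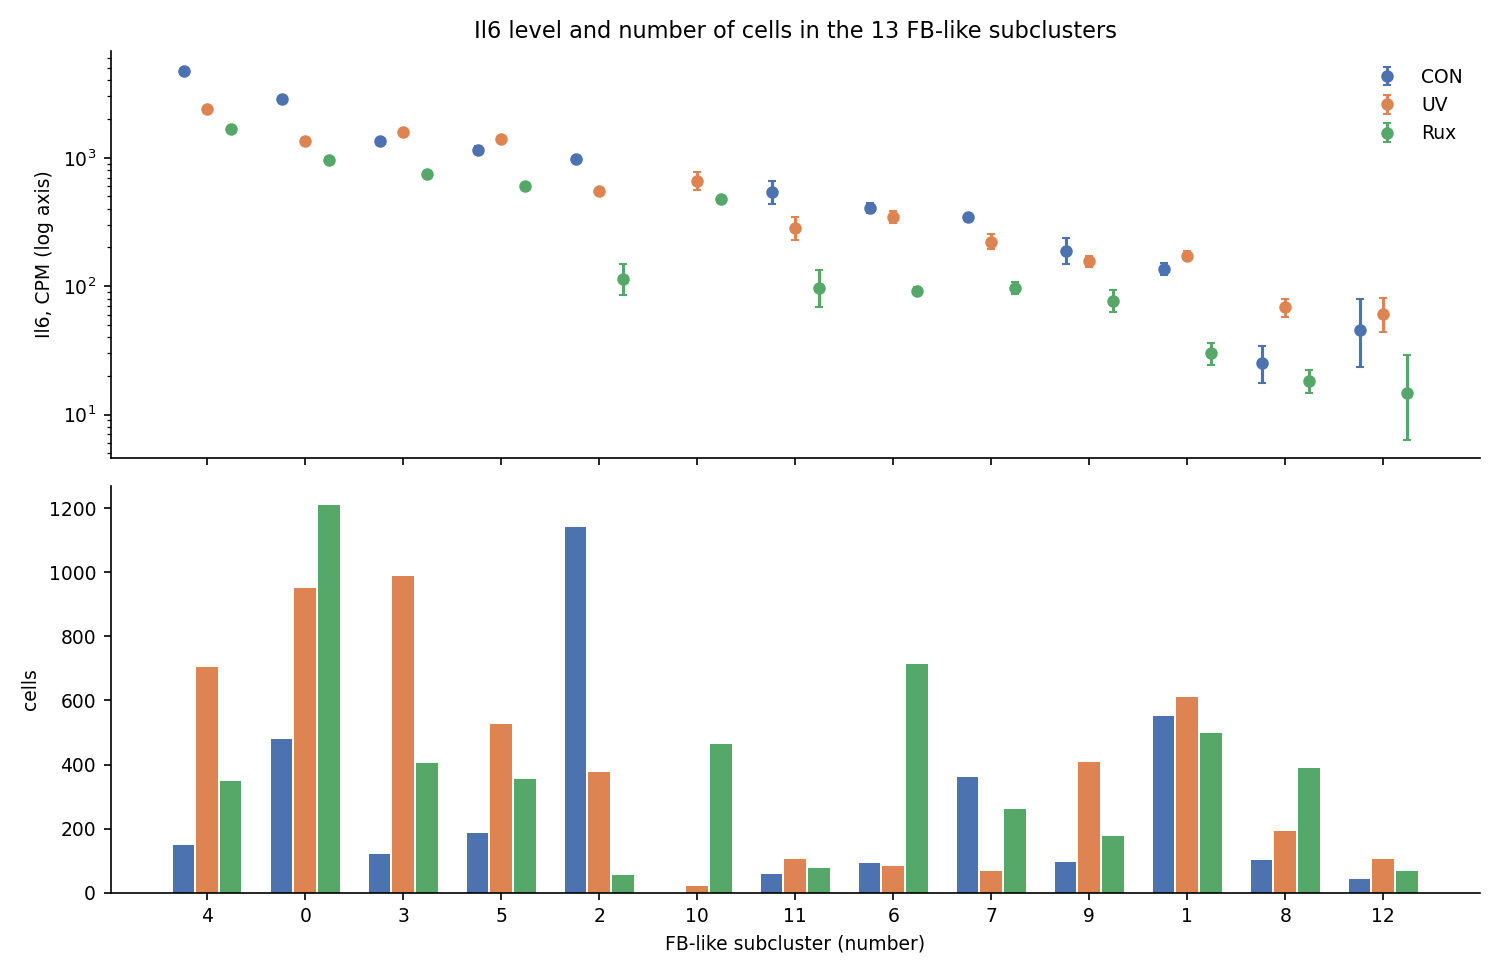
Il6 level (CPM, log axis, exact 95% Poisson intervals, upper panel) and number of cells (lower panel) in 13 FB-like subclusters of CON, UV and Rux, ordered by the highest Il6 level of any library and shown where a library has at least 20 cells. Rux is the lowest point in every subcluster where it is shown, and subcluster 2 goes from 1141 cells in CON to 57 in Rux while subcluster 10 is seen in UV (22 cells) and Rux (465 cells).

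Immediate-early genes, which rise when tissue is dissociated and which encode AP-1 subunits among others, moved with the libraries too. In FB-like cells the 14 genes of this list summed to 21468, 10497 and 11483 CPM, with 11 called lower and none higher in UV than in CON, 10 lower and none higher in Rux than in CON, and 2 higher (Nr4a1 and Dusp1) and none lower in Rux than in UV. Of all genes tested there, 12.8% were called lower for UV over CON, 16.3% lower for Rux over CON and 4.99% higher for Rux over UV. In PCY-like cells the sum was 20227, 13694 and 16181 CPM, in LEC-like cells 15251, 11443 and 11986, in VEC-like cells 12040, 10445 and 10693, and in MYE-like cells 7440, 5270 and 5707. Sums follow the most abundant genes, and calls did not always go with them. For UV over CON, 8, 6 and 5 genes were called lower in PCY-like, LEC-like and MYE-like cells and none higher. VEC-like cells had 2 higher and none lower. For Rux over UV, PCY-like cells had 2 higher, and VEC-like cells 1 higher and 1 lower. LEC-like cells had 2 lower, and MYE-like cells 1 higher and 4 lower. Of all genes tested in PCY-like, LEC-like, MYE-like and VEC-like cells, 14.3%, 14.2%, 14.5% and 12.9% were called for UV over CON. For Rux over UV it was 10.9%, 11.4%, 16.2% and 10.3%. The part of the immediate-early genes in the ligand levels was not tested. Subcluster 2, the subcluster highest in immediate-early genes, held 3.94% of FB-like Il6 UMIs in UV and 0.208% in Rux. Leaving it out could therefore change the Il6 ratio for Rux over UV little, and that ratio kept its call. Without this subcluster Lif had 0.53 and lost its call.

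The rest of the pathway split in FB-like cells. Of 36 other pathway genes, 34 had enough UMIs for UV over CON, with 5 called higher and 6 lower, where 23.9% of all genes tested were called. For Rux over UV it was 6 higher and 7 lower of 34, beside 17.4% of all genes, and for Rux over CON 6 higher and 12 lower of 33, beside 25.3%. The feedback inhibitors stood at the low end in Rux. Socs3 had 913, 432 and 131 CPM in CON, UV and Rux, a log2 ratio of −1.72 (−1.76 to −1.68) for Rux over UV. Socs1, which inhibits JAK kinases, had 96.3, 49.1 and 17.7 CPM (−1.47, −1.58 to −1.36), and Cish 38.6, 35.2 and 23.5 CPM. All 4 inhibitors on the list were called lower in Rux than in CON. Socs3 and Socs1 are among the leading genes of subcluster 2, which had 1141, 377 and 57 cells in CON, UV and Rux. The part of this mix in the pooled levels was not tested.

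Among kinases, transcription factors and adaptors, none of 9 was called in FB-like cells for Rux over UV. In FB-like cells Stat3 had 503, 383 and 279 CPM, called lower for Rux over CON (−0.85, −0.88 to −0.81). Neither sheddase (Adam10, Adam17) was called in FB-like cells in any contrast.

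Known targets of the pathway went both ways. For Rux over UV in FB-like cells, 4 of 11 were called higher and 2 lower, beside 4.99% and 12.4% of all genes. Cebpd, a transcription factor of the acute phase response, had 1508, 656 and 353 CPM, and Il4ra had a log2 ratio of −0.77 (−0.83 to −0.72). Saa3, an acute phase protein, had 62.3, 84.3 and 750 CPM, Hp (haptoglobin) 4.03, 23.9 and 137, Lcn2 (lipocalin-2) 5.95, 23.6 and 65.9, and Timp1, an inhibitor of matrix proteases, 118, 162 and 301. The acute phase genes Saa3, Hp and Lcn2 are the leading genes of subcluster 10, which 465 of 5029 FB-like cells of Rux made up. Cebpd is among the leading genes of subcluster 2, which had 1141, 377 and 57 cells in CON, UV and Rux.

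Of the other receptor subunits, Il31ra, which pairs with Osmr for interleukin-31, had 29.4, 70.3 and 26.1 CPM in FB-like cells, called higher for UV over CON (1.26, 1.14 to 1.38) and lower for Rux over UV (−1.43, −1.52 to −1.33). Its ligand Il31 had 0, 0.607 and 0.0357 CPM there, and the floor in CON was 0.129 CPM. Cntfr, a subunit for CLCF1, had 15.4, 7.42 and 8.17 CPM.

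In other classes Socs3 was called lower for Rux over UV in VEC-like cells (860 to 435 CPM) and LEC-like cells (878 to 396 CPM). It had 573 and 401 CPM in PCY-like cells, below the threshold, and 192 and 280 CPM in MYE-like cells. Of the other pathway genes with enough UMIs, 9 of 23 were called in PCY-like cells for Rux over UV, all lower, beside 10.9% of all genes. It was 7 of 26 in VEC-like cells (3 higher, beside 10.3%), 9 of 28 in LEC-like cells (1 higher, beside 11.4%) and 9 of 28 in MYE-like cells (4 higher, beside 16.2%).

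Across 55 sums of a class and a library with at least 50 cells, over 22 classes, the genes with a profile most like that of a member were named by Pearson's r of log2(CPM + 1), as a description, since sums of 1 library share its preparation. For Il6 they were Il1r1 (0.85), Procr (0.84) and Cxcl1 (0.84), for Lif Fn1 (0.76) and Dapk1 (0.74), and for Osm BC049352 (0.94), Tarm1 (0.94) and Lilr4b (0.92). For Osmr they were Adamts1 (0.93), Cavin1 (0.92) and Cavin3 (0.91), and for Il6st Slc10a6 (0.89), Cavin1 (0.88) and Akap12 (0.87), so Cavin1, a coat protein of caveolae, was shared. For Lifr they were Plod3, Ano6 and Marveld1 (each 0.81), for Il11ra1 Scara3 (0.87), Gxylt2 (0.85) and Gdf10 (0.85), and for Il6ra Dusp1 (0.77), Csrnp1 (0.74) and Dram1 (0.69). Clcf1 was closest to Bdp1 (0.65), Gramd3 (0.62) and Cisd2 (0.62), and Il11, which reached 50 CPM in no sum, to Impdh2 (0.63), Trabd2b (0.63) and Atp2a2 (0.61). Among the members themselves the highest r was 0.80 between Il6st and Osmr, then 0.77 between Il6st and Lifr.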

How the data were processed

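The authors deposited 1 matrix of UMI counts per library, not normalized, made with Cell Ranger on mm10 (version 6.1.2 per the labels, 7.0.0 per the file headers). Cells were kept from 200 genes upward and up to 10% of UMIs from mitochondrial genes, and doublets called with Scrublet (scanpy 1.11.5, 0.8% per 1000 cells) were removed. Cells were clustered in Seurat 5.3.0 (R 4.3.3) on 2000 variable genes and 30 principal components at resolution 1.5, and FB-like cells and leukocytes again on 20 components at 0.5 and 1.0. Clusters were named from marker lists, and those with 2 close classes or under 3 detected markers stayed unnamed. UMIs were summed per class and library. Ratios used a pseudocount of 0.5 UMIs. The genes named were the 10 members, the pathway and immediate-early lists, and the 3 genes most like each member. The members and lists were chosen with earlier results of these data known. Alternatives changed filters, doublet removal, resolution, scaling and the weight of cells and subclusters. A few genes of the lists are not reported here.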

Additional observations from a re-analysis of the deposited data

Results flagged for a closer look

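A few ratios had opposite signs in different cell classes, and in each case the difference was not tested because there is 1 library per condition. Il11 had a log2 ratio for UV over CON of 0.90 in FB-like cells and 1.71 in LEC-like cells, against −1.53 in PCY-like cells. For Rux over CON, Il11 had 1.08 in FB-like cells and −3.51 in PCY-like cells, where Rux held 1 UMI. Lif had 1.15 in FB-like cells and −1.55 in PCY-like cells for Rux over CON. Il6ra had 0.67 in FB-like cells and −0.76 in MYE-like cells for Rux over CON. The FB-like values pool subclusters that the libraries held in different numbers. Within them, Il11 for UV over CON ran from −0.90 to 0.08. Lif for Rux over CON was above CON in 6 and below it in 6, while Il6ra was above it in 12 of 12.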

How the results depend on the processing

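No paired analysis was possible because each condition has 1 library. In FB-like cells the 8 called ratios kept their direction in 10 of 10 alternatives. Ratios that were not called did turn, among them Il6 (0.06 to −0.72) and Lif (0.53 to −0.54) for UV over CON with subclusters weighted as in CON, and Il11ra1 for Rux over UV (0.02 to −0.37) with the same weights. The Il6 calls for Rux over UV (−1.30 to −1.07) and Rux over CON (−1.83 to −1.05), and those of Il11 (0.61 to 1.22) and Il6ra (0.60 to 0.82) for Rux over CON, held in 10 of 10. Lif for Rux over UV lost its call without the subcluster highest in immediate-early genes (0.53), and Lif for Rux over CON (0.50) and Il11 for UV over CON (0.49) with subclusters weighted as in CON. Clcf1 for Rux over UV lost it with equal weight per cell and with the low-UMI fibroblast cluster added, and its lowest value was 0.49. The number of members called for UV over CON went from 1 to 2 with median-of-ratios scaling (Lif, 0.62), and for Rux over UV from 3 to 5 with subclusters weighted as in CON (Il6ra 0.68, Osmr −0.63). That weighting also called Il6 lower for UV over CON and Il11ra1 lower for Rux over CON (−0.67), and equal weight per cell called Clcf1 for Rux over CON (0.62). No interval was made for these weighted settings, so calls there rest on 1.5-fold alone. The share of all genes called under each alternative is not given here. The counts of members alone therefore cannot tell whether the added calls are particular to the members or shared by other genes. The FB-like share of Il6 UMIs in CON, UV and Rux was 64.9%, 79.5% and 86.2% with strict filters, 64.2% and 77.5% in CON and UV with loose ones, 59.5%, 73.2% and 79.7% without doublet removal, and 71.7%, 81.2% and 87.3% with the low-UMI cluster. The leukocyte share of Osm UMIs was 85.0%, 85.3% and 92.8% without doublet removal. The cause of these moves was not tested. The weighted settings, the setting without a subcluster and the one with the low-UMI cluster were chosen after seeing the data.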
